A study of Homo sapiens with 3 samples.

Results

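Stretches of the Hep3B genome that held few measured CpGs and had a high mean methylation level over the 3 libraries of the study were examined. Hep3B is a human hepatocellular carcinoma cell line, and DNA methylation was compared between parental Hep3B and SOX4 knockout Hep3B lines #1 and #2, in which CRISPR/Cas9 had been used against SOX4, a transcription factor of the SRY-related box family. Each line was represented by 1 library, so the parental group had 1 sample and the knockout group had 2 samples, called line 1 and line 2 below. The knockout cells were kept under puromycin and the parental cells were not described as such, so the knockout, the clonal history of each line and the selection cannot be told apart in these data, and the loss of SOX4 itself was not measured here. Regions were captured with probes, treated with bisulfite and sequenced, and the level of a CpG was the percentage of its reads that were methylated, with both strands summed.

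The autosomes were cut into fixed windows of 1 kb, and a window was kept when at least 5 of its CpGs had 10 or more reads in all 3 libraries. A member was a kept window with 5 to 10 such CpGs whose mean level, over its CpGs and then over the 3 libraries, was above 80%. This rule chose 24847 windows with 162259 CpGs, which was 22.3% of the 111495 kept windows and 38.0% of the 65355 kept windows with 5 to 10 CpGs. The high level is therefore the criterion of choice and not a finding. The capture panel also sets which windows could be kept, so the shares are shares of captured sequence. The word sparse holds for CpGs with enough reads, since 3960 members (15.9%) held more than 10 CpGs when CpGs with fewer reads were counted too.

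In mammals, a methyl group is placed on the cytosine of CpG pairs by the enzymes DNMT3A and DNMT3B and is copied after replication by DNMT1 with UHRF1, while TET enzymes start its removal. Most of the genome is poor in CpGs, and its CpGs are commonly methylated, including those in gene bodies, repeats and the promoters of genes used in other tissues. CpG islands, dense runs of CpGs at the promoters of many widely used genes, are commonly unmethylated. Tumour cells often carry partly methylated domains, long stretches in which CpG-poor sequence has lost part of its methylation, and CpGs that stand alone between A or T bases are known to lose it readily.

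The sequence in and around such windows is shown here for 7 members that lie at annotated gene starts. Each line gives the 250 bases upstream of a RefSeq gene start in GRCh38.p14, read along the gene's own strand, with every CpG in capitals. The genes were chosen after their values were seen. LCK, IL13 and IL1RN are immune genes with few CpGs, H2BC1 is a testis histone gene, SGCD and SGK1 had the lower levels in the knockout lines described below, and ZKSCAN4 is the exception that is dense in CpGs.
LCK: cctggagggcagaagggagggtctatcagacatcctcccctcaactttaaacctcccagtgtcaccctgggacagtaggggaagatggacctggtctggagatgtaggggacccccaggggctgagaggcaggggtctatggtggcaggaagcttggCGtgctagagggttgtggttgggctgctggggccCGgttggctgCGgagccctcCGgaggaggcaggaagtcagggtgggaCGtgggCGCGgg
IL13: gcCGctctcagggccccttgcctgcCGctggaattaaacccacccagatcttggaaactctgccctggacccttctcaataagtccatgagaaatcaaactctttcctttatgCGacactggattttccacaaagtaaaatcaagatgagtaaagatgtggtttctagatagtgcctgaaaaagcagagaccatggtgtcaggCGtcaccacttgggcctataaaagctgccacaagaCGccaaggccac
IL1RN: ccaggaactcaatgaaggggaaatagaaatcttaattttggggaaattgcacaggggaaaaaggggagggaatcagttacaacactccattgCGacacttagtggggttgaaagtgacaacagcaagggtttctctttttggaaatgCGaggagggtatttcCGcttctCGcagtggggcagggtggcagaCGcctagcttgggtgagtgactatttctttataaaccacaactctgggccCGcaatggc
H2BC1: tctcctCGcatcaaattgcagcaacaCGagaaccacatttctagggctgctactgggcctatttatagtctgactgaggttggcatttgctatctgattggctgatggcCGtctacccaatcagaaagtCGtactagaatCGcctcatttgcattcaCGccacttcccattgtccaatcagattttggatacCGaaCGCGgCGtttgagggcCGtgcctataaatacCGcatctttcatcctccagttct
SGCD: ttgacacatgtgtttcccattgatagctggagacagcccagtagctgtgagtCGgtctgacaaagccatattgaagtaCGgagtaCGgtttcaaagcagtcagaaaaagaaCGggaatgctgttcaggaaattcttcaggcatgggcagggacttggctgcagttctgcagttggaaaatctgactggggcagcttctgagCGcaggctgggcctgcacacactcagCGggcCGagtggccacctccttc
SGK1: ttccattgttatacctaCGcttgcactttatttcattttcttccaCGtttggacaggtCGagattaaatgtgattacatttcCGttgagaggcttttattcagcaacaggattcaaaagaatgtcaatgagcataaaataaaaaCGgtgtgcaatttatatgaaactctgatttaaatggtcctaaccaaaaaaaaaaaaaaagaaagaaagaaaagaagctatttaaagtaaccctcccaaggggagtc
ZKSCAN4: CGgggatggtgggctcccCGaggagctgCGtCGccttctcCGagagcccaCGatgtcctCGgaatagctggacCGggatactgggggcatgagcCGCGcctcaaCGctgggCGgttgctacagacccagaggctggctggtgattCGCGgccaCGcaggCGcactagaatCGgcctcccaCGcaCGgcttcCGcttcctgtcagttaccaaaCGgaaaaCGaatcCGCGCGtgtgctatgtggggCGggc
IL13 had 5 CpGs in its 250 bases and SGK1 had 5. ZKSCAN4 had 26 CpGs in the same length. The end of a fixed window cut through it, so that its start lay in a member with 9 counted CpGs, of which 3 belonged to the promoter. The rest of the 28 CpGs in its whole 300-base promoter lay in the next window. In the coordinates of the deposited calls, GRCh37 (hg19), the CpGs of the 300-base promoters lay at chr1:32716774-32716890 for LCK, chr5:131993618-131993887 for IL13, chr2:113885018-113885224 for IL1RN, chr6:25726762-25727020 for H2BC1, chr5:155753977-155754220 for SGCD, chr6:134639204-134639483 for SGK1 and chr6:28226942-28227239 for ZKSCAN4.

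Windows with 5 to 10 CpGs had a peak near 0% and another near 95% in each library, with the other windows spread over all levels between, and the members were taken from the upper end. Averaged over the members, the level stood at 92.7% in parental cells, 91.2% in line 1 and 91.9% in line 2, and the mean of the knockout lines was 91.6% ± 0.537 (SD, n = 2). The knockout mean minus the parental level was -1.17 points, and no replicate of the parental library exists to set beside it. Of the members, 17379 (69.9%) had a mean level above 90% and 8887 (35.8%) above 95%. The windows nearest to the limit of 80% were alike on both sides of it. The 3 members just above had 83.5%, 75.1% and 81.4%, then 86.4%, 78.6% and 75.04%, then 78.0%, 81.3% and 80.7% in parental, line 1 and line 2. The 3 windows just below had 81.8%, 74.5% and 83.6%, then 88.6%, 77.0% and 74.5%, then 88.3%, 72.3% and 79.3%.

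**Figure D1:**
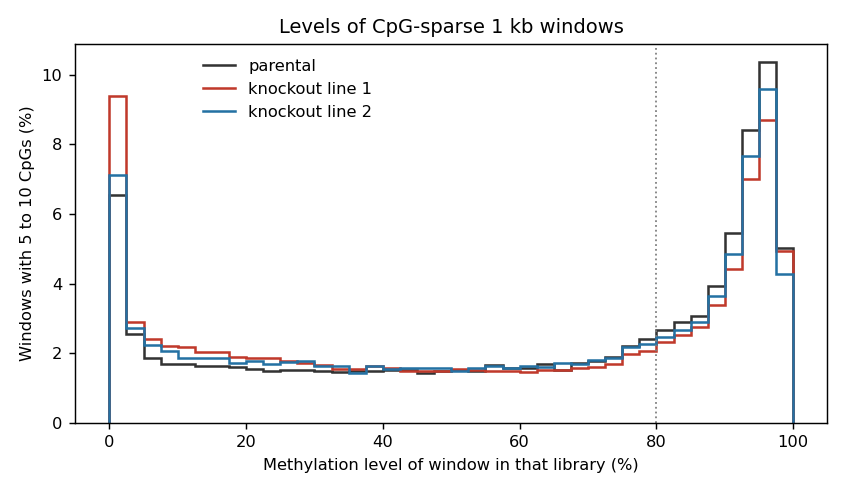
Methylation level of the kept autosomal 1 kb windows with 5 to 10 CpGs (x axis, %, steps of 2.5) against the percentage of those windows (y axis), 1 line per library. Each library has a peak at 0 to 2.5% and another between 90% and 100%, and the dotted line marks the limit of 80% that the mean of the 3 libraries had to pass.

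All the levels in this comparison by CpG number are bounded by the rule and are a description. Members with 5 CpGs had 93.0%, 91.4% and 92.2% in parental, line 1 and line 2, and members with 10 CpGs had 92.3%, 91.1% and 91.6%. The share of windows above the limit was 40.4% at 5 CpGs and 34.7% at 10 CpGs. The 20887 members with no more than 10 CpGs seen in any library had 92.7%, 91.1% and 91.9%, and the 599 members with more than 20 CpGs seen had 93.9%, 92.2% and 93.2%. The 9773 kept windows with more than 10 CpGs and a level above 80% had 92.9%, 91.3% and 92.0%, and the limit of 80% bounds both sets.

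CpGs that the rule did not use gave similarly high levels. They lie in the same windows as the counted CpGs, and a read can cover both kinds. Their levels are therefore not independent of the choice and are a description. The member windows held 46373 more CpGs that missed 10 reads in at least 1 library. Pooled over reads, 89.7% of calls at these CpGs were methylated in parental cells (348805 of 389065 calls, 95% Wilson interval 89.6 to 89.7). Line 1 gave 87.5% (87.4 to 87.6) and line 2 gave 88.7% (interval 88.7 to 88.8). All autosomal CpGs of such low coverage gave 49.98%, 46.2% and 47.9%. These intervals cover counting error only, and reads made by PCR are not independent molecules. In the 10900 members with at least 30 such reads over the 3 libraries, the unused CpGs had a median level of 92.9%, and they were above 80% in 9212 windows (84.5%) and below 50% in 347 (3.18%).

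A second reading let 2 libraries choose the windows and read the level in the library left out. Chosen on both knockout lines, 24068 windows had a parental level of 92.7%, and 97.0% of them were above 80% in parental. Chosen on parental and line 2, 25926 windows had a line 1 level of 89.96%, and 87.6% of them were above 80%. Chosen on parental and line 1, 24848 windows had a line 2 level of 91.8%, and 95.6% were above 80%. Line 1 gave the lowest value of the 3 when it took no part in the choice.

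The limit of 80% on the mean bounds how far the CpG levels within a member can spread, so the values here are a description. All counted CpGs were above 80% in every library in 9604 members (38.7%), and 12238 CpGs (7.54%) were at 100% in all 3 libraries. The SD of the CpG levels within a window had a median of 5.71 points in parental, 6.75 in line 1 and 5.97 in line 2. Counting error alone at these read numbers would give a median of 4.53, 5.03 and 4.28 points, and the observed medians were above these in all 3 libraries. The median number of reads per CpG in a member was 29.8, 26.9 and 36.4.

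A small number of CpGs were read as unmethylated in all 3 libraries inside a highly methylated window. The DNA sequence of the cells was not checked, so whether these positions are CpGs in Hep3B was not tested. There were 473 such CpGs (0.292%), each below 20% in every library, and each lay in a different member. Their mean level was 0.926% in parental, 0.859% in line 1 and 0.949% in line 2. The 3345 other counted CpGs of the same windows had 95.1%, 94.7% and 94.9%. A member with 10 CpGs at chr1:1028001-1029000 held a CpG at 0% and another at 100% in each library, with a window level of 84.4%, 84.7% and 82.8%. At the other extreme, a member at chr19:13181001-13182000 had 8 of its 10 counted CpGs at 100% in all 3 libraries.

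CpGs that lay close together had higher levels than CpGs that stood apart. Member CpGs with a neighbour within 10 bp had 94.0% in parental, 92.9% in line 1 and 93.5% in line 2 (63276 CpGs). Those whose nearest neighbour was more than 100 bp away had 90.1%, 87.3% and 88.7% (3706 CpGs). The difference between line 1 and parental had the same order, from -1.04 points for the close CpGs through -1.63 at 11 to 35 bp and -2.27 at 36 to 100 bp to -2.80 for the isolated CpGs. For line 2 these differences were -0.483, -0.864, -1.18 and -1.38 points. CpGs are not replicates, so these values carry no test.

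The members lay in wider stretches of high methylation. Of kept windows with 5 to 10 CpGs that lay 1 kb from a member, 75.5% were members themselves. The share was 64.2% at 10 kb, 51.1% at 100 kb and 41.4% at 1000 kb, beside 38.0% over all such windows. Neighbouring windows that were not members also had a raised level close by. Their parental level was 63.6% at 1 kb, 49.9% at 2 kb, 47.4% at 3 kb, 49.9% at 10 kb, 47.9% at 20 kb and 42.4% at 1000 kb. Windows with more than 10 CpGs and a level above 80% count as non-members here. Of all kept windows 1 kb from a member, 69.1% were above 80% and 41.8% were members. Most members adjoined no other member, but an adjoining window had to be captured and kept to count. For the 24847 members, only 6894 pairs of a member and a kept window 1 kb away were found. Standing alone is therefore no statement about the methylation beside a member. As runs of adjoining windows, 22092 members stood alone, and there were 1199 runs of 2, 104 runs of 3, 5 runs of 4 and 5 runs of 5 windows. The 5 longest runs were at chr1:228403001-228408000, chr2:236770001-236775000, chr3:13417001-13422000, chr7:2147001-2152000 and chr13:64413001-64418000. The run on chromosome 13 had 91.6% in parental, 86.7% in line 1 and 90.1% in line 2, and in the run on chromosome 2 the order was turned, with 95.03%, 97.2% and 96.5%.

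**Figure D2:**
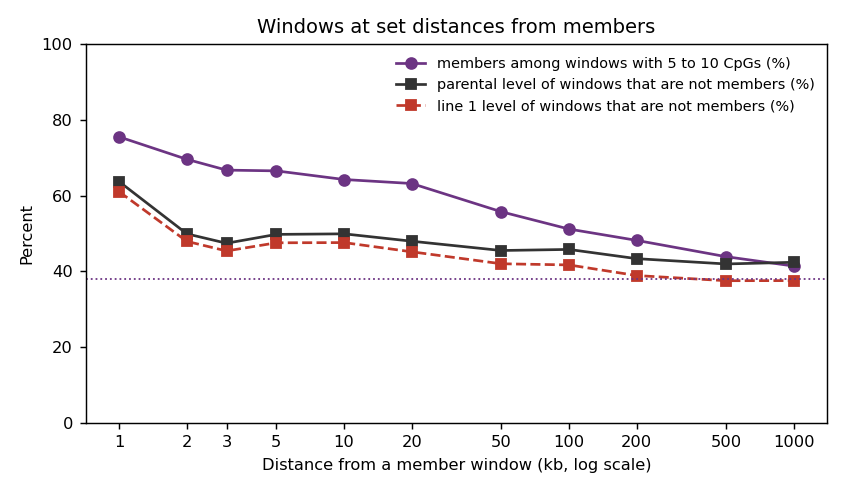
Distance from a member window (x axis, kb, log scale) against the percentage of kept windows with 5 to 10 CpGs that are members (circles), and the mean level in parental and line 1 of kept windows that are not members (squares). The share of members goes from 75.5% at 1 kb to 41.4% at 1000 kb, near the dotted line at 38.0% for all such windows, and line 1 lies below parental at each distance.

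The differences between lines were small in most members and went down more often than up. The mean difference from parental was -1.55 points in line 1 and -0.794 in line 2, and the mean of line 1 minus line 2 was -0.76 points. The median differences from parental were smaller, at -0.83 and -0.577 points. Of the members, 58.7% were below parental in line 1, 57.0% in line 2 and 43.0% in both lines. Over all kept windows these shares were higher, at 68.6%, 64.8% and 55.4%, with mean differences of -4.71 points in line 1 and -2.46 in line 2. The downward direction is therefore not particular to the members. In windows with 5 to 10 CpGs at 80% or below, the mean differences were -8.19 and -4.19 points, and in dense windows above 80% they were -1.55 and -0.841. A level near the top leaves little room for a rise, and the limit of 80% on the mean leaves little room for a large fall, so the size of these differences is bounded by the rule.

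Few member CpGs passed the test between single libraries. Each CpG was tested with a 2-sided Fisher exact test on its methylated and unmethylated reads, adjusted by Benjamini and Hochberg over all 2238764 CpGs with enough reads, and called at an adjusted p under 0.05 with a difference of at least 25 points. Between line 1 and parental, 2198 of the 162259 member CpGs fell (1.35%) and 277 rose (0.171%), where 4.46% of all CpGs fell and 0.599% rose. Between line 2 and parental, 261 fell (0.161%) and 37 rose (0.0228%), beside 0.713% and 0.0831% of all CpGs. In line 1 against line 2, 581 were lower and 57 were higher, beside 1.07% and 0.184% of all CpGs. In both lines against parental, 194 fell and 18 rose, beside 0.6% and 0.0581%. The last comparison shares the parental library between both lines. The tests compare the reads of 2 libraries and do not include variation between cultures, and the rule bounds the member counts, so nothing is read from their lying below the background.

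Whole windows that moved by 25 points were rare. Line 1 was lower than parental by at least 25 points in 76 members and higher in 8, beside 4.16% and 0.42% of all kept windows. Line 2 was lower in 4 and higher in 2, beside 0.63% and 0.0906%. Line 1 was lower than line 2 in 12 and higher in 0, beside 0.778% and 0.117%. In both lines 0 members were lower and 1 was higher, beside 0.554% and 0.0682%. At a difference of at least 10 points, line 1 was lower in 1844 members and higher in 360, beside 21.5% and 2.27%, and line 2 was lower in 662 and higher in 219, beside 10.3% and 1.46%. In both lines 400 were lower and 113 were higher, beside 9.08% and 0.878%. Line 1 was lower than line 2 by this much in 845 and higher in 264, beside 9.71% and 1.72%. Windows carry no test, since the parental group has 1 library.

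**Figure D3:**
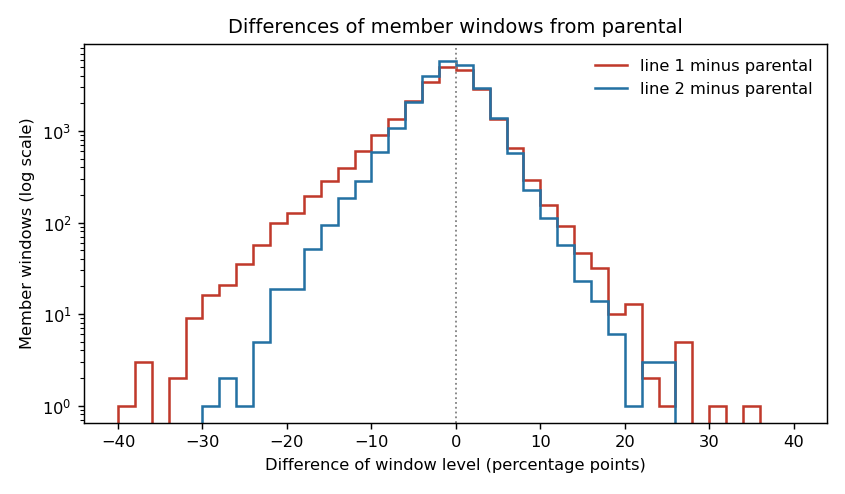
Difference of the window level from parental (x axis, percentage points, steps of 2) against the number of member windows (y axis, log scale) for line 1 and line 2. Both lines have a longer side to the left, and that of line 1 extends further, with 76 members lower by at least 25 points in line 1 and 4 in line 2.

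Where line 2 lay relative to the others depended on the library that chose the windows. In the 1844 members that were lower in line 1 by at least 10 points, the median levels were 92.7% in parental, 77.8% in line 1 and 86.0% in line 2, and line 2 lay between the other two in 1590 (86.2%). In the 360 that were higher in line 1 by at least 10 points, the medians were 79.8%, 93.5% and 87.5%, and line 2 lay between in 299 (83.1%). When line 2 made the choice, line 2 lay between parental and line 1 in 293 of the 662 members lower in line 2 by at least 10 points (44.3%) and in 77 of the 219 higher (35.2%). The medians of the 662 were 93.6% in parental, 81.0% in line 1 and 80.4% in line 2. The parental library is shared by both differences, so the counts are a description.

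The members with the largest difference shared by both lines were chosen by the smaller of the 2 differences. The 5 lowest in the knockout lines lay at chr5:134579001-134580000, chr1:24432001-24433000, chr13:114762001-114763000, chr15:61079001-61080000 and chr6:138303001-138304000. The first had 95.5% in parental, 72.7% in line 1 and 73.6% in line 2. Its 9 counted CpGs spanned 124 bp, and 3 of them fell in line 1 and 1 in line 2. These were different CpGs. The one called in line 2, at 134579694, had 17 of 19 reads methylated in parental, 12 of 14 in line 1 and 6 of 20 in line 2. One CpG of this window, at position 134579707 of chromosome 5, had 21 of 22 reads methylated in parental, 2 of 17 in line 1 and 14 of 22 in line 2, with an adjusted p from Fisher's exact test of 7.48e-06 for line 1 and 0.433 for line 2. Its neighbours at 134579739 and 134579741 were at 96.8% in parental and at 100% and 95% in line 1, so the loss was uneven within the window. The window on chromosome 1 was at 100% in parental, 73.0% in line 1 and 78.8% in line 2, and 0 of its 7 CpGs passed the test.

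The 5 highest in the knockout lines lay at chr19:11347001-11348000, chr16:70057001-70058000, chr11:1591001-1592000, chr7:100463001-100464000 and chr7:578001-579000. All 5 had a parental level between 63.8% and 67.5%, which the limit on the mean of 3 libraries allows only with high knockout levels. The window at chr7:578001-579000 had 63.8% in parental, 94.8% in line 1 and 83.4% in line 2, and 3 of its 6 counted CpGs rose in line 1 and 1 in line 2. The window on chromosome 11 had 64.0%, 90.6% and 87.9%, and its CpGs ranged from 19.4% to 100% in parental and from 74.4% to 100% in line 1.

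Members closest to the limit differed most between the lines. Members at 80 to 85% had 85.1% in parental, 80.1% in line 1 and 82.6% in line 2, a mean difference of -5.05 points for line 1. The difference was -3.23 at 85 to 90%, -0.944 at 90 to 95% and -0.0459 at 95 to 100%. A member above 95% on the mean of the 3 libraries cannot be far lower in any of them, so part of this order is set by the choice.

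The surroundings of a member were other windows, but these include other members. Their level is a mean over the same 3 libraries, so a region lower in the knockout lines is also sorted into a lower class. The classes are therefore not independent of the differences compared, and the values are a description. For 21941 members with at least 3 other kept windows within 100 kb on either side, the mean level of those other windows was taken over the 3 libraries, and its median was 71.7%. The 834 members in surroundings below 40% had 91.9% in parental, 89.5% in line 1 and 90.6% in line 2. The 5948 members in surroundings of 80% or more had 93.1%, 92.2% and 92.7%. The mean difference for line 1 was -2.38, -1.90, -1.42 and -0.885 points in surroundings below 40%, at 40 to 60%, at 60 to 80% and from 80%. Members lower by at least 10 points in both lines made up 4.32%, 2.45%, 1.19% and 0.757% of these classes. Among members of 80 to 85%, with a mean level of 82.5% to 82.7% in each class, the line 1 difference was -6.05 points in surroundings below 60%, -4.68 at 60 to 80% and -3.18 from 80%. The order was also present at 85 to 90% (-3.47, -3.26 and -2.05 points). At 90 to 95% the line 1 differences were -0.924, -0.825 and -0.743 points, and above 95% the order was not present (-0.0284, -0.0134 and -0.0518 points). For line 2 the differences were -3.11, -2.39 and -1.43 points at 80 to 85% and -1.76, -1.57 and -1.09 at 85 to 90%. At 90 to 95% the order was not present in line 2 (-0.285, -0.411 and -0.367 points), and above 95% the differences were -0.169, -0.11 and -0.0691 points.

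**Figure D4:**
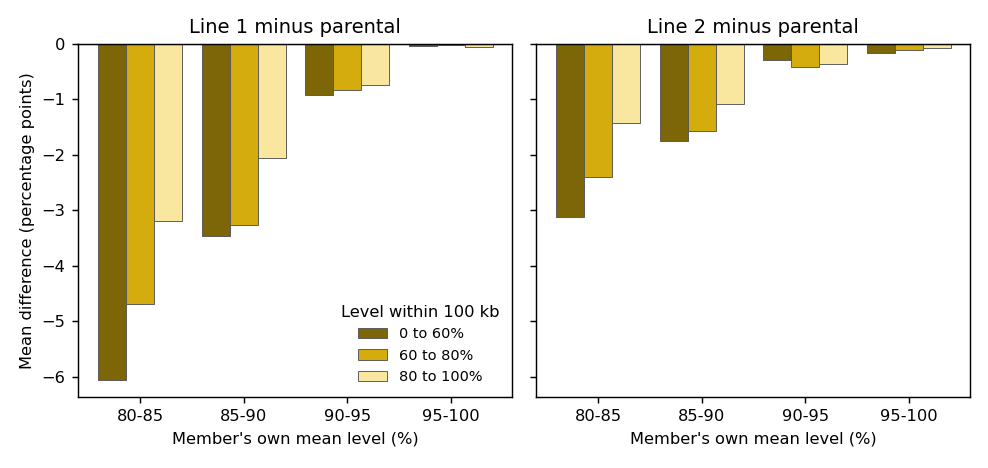
Mean difference of members from parental (y axis, percentage points) by the member's own mean level (x axis, %) and by the mean level of other kept windows within 100 kb (bar shade), for line 1 and line 2. In members of 80 to 85% the line 1 difference goes from -6.05 points in the least methylated surroundings to -3.18 points in the most methylated, and above 95% the bars are near 0.

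The members occurred on all 22 autosomes. Their share of kept windows with 5 to 10 CpGs ranged from 27.6% on chromosome 20 to 41.9% on chromosome 17, with a median of 38.8%. The mean difference from parental was negative on 22 of 22 autosomes in line 1, from -2.44 points on chromosome 5 to -0.677 on chromosome 19. It was negative on 22 of 22 in line 2 as well, from -1.28 points on chromosome 5 to -0.294 on chromosome 16. Read depth per autosome, relative to parental and to the median autosome, ranged from 0.781 on chromosome 21 to 1.34 on chromosome 11 in line 1 and from 0.893 to 1.15 in line 2. Its part in the differences was not tested.

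Gene starts were rare among members. No gene annotation of GRCh37 was used here, so RefSeq promoters of GRCh38.p14 were placed by the exact distances between their CpGs, and 10602 of 24706 promoters with at least 5 CpGs had a single such place. Of the 9808 placed promoters in kept windows, 260 lay in members (2.65%), and they belonged to 252 genes in 248 windows. A placed promoter was present in 0.998% of members and in 7.13% of all kept windows. The share depended on CpG number. Of promoters with 5 to 7 CpGs in 300 bases, 20.4% lay in members, against 7.49% with 8 to 10, 0.622% with 11 to 20 and 0.194% with 21 to 60. The median placed promoter had 22 CpGs and the median member promoter had 6. Promoters with fewer than 5 CpGs could not be placed, so these shares do not cover them. Protein-coding genes made up 67.3% of the member promoters and long non-coding RNA genes 32.7%, beside 80.7% and 19.3% of all placed promoters in kept windows.

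Of 15 hepatocyte genes, which included the albumin, fibrinogen and apolipoprotein genes, only the promoters of SERPINA1 and F2 were placed in kept windows, and neither was in a member. The SERPINA1 window, at the gene of the main plasma protease inhibitor, had 66.8% in parental, 66.9% in line 1 and 69.6% in line 2. That of F2, the gene of prothrombin, had 5.13%, 8.54% and 9.02%. Of 11 genes of the methylation machinery, DNMT3A, TET1, TET2 and MBD4 were placed and 0 were in members, all with window levels below 5%.

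Some genes with member promoters are named here with their known use. They were picked by hand after their values were seen, and the 252 genes were not counted by tissue. Among genes of blood and immune cells, LCK, the kinase at the T cell receptor, had a window level of 80.1% in parental, 84.1% in line 1 and 82.9% in line 2. Only 4 of its 10 promoter CpGs had enough reads. These 4 had means of 95.3%, 86.7% and 97.1%, so line 1 was below parental there. The window of CXCR6, a chemokine receptor of T cells, had 97.2%, 92.7% and 94.0%. That of IL13, a cytokine of type 2 T cells, had 89.8%, 92.2% and 94.6%. FERMT3, which activates integrins in blood cells, had 95.5%, 95.2% and 97.1%, and DOCK8, a regulator of immune cell movement, had 96.1%, 98.1% and 97.0%. Over the 10 immune genes plotted, the difference of line 1 from parental ranged from -16.9 to 15.3 points, so they had no common direction.

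Genes of the germ line were also among the members. H2BC1, a histone H2B gene of the testis, had a window level of 92.9%, 91.3% and 91.3% in parental, line 1 and line 2. A window end cut through this promoter too, and 1 of its 13 CpGs lay in the member. The 13 CpGs had 54 to 88 reads each in parental and means of 93.8%, 84.96% and 85.7%. One CpG at position 25726954 of chromosome 6 had 62 of 62 reads methylated in parental, 33 of 50 in line 1 and 76 of 87 in line 2. The adjusted p from Fisher's exact test was 1.54e-05 for line 1, 0.136 for line 2 and 0.141 between line 1 and line 2. Line 2 was also lower than parental here but did not pass the test. TOPAZ1, a gene of male germ cells, had 99.4%, 78.1% and 85.9%, but only 1 of the 25 CpGs in its promoter had enough reads. Genes of the eye and other senses were CRYGC, a lens crystallin, with 82.5%, 82.0% and 82.0%, OPN5, an opsin, with 90.7%, 82.3% and 84.9%, and TAAR2, a trace amine receptor, with 96.3%, 97.0% and 97.6%. Genes of stratified epithelia were DSG3, a desmosome cadherin, with 93.2%, 87.8% and 94.4%, and KRT40, a hair keratin, with 91.9%, 90.5% and 93.3%.

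A few genes with known roles in liver had member promoters too. ITIH1, which encodes a plasma protein made by the liver, had 98.2% in parental, 94.98% in line 1 and 97.7% in line 2. ABCG5, a sterol transporter, had 85.2%, 80.6% and 86.4%, and ACSL1, which activates fatty acids, had 90.4%, 94.5% and 96.7%. HGF, the growth factor that liver stellate cells make for hepatocytes, had 93.9%, 85.9% and 93.2%. Several of these genes have more than 1 annotated start, and the value belongs to the start that was placed. No expression was measured in these files.

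The mean difference from parental over the windows of the 260 member promoters was -2.24 points in line 1 and -0.875 in line 2, beside -1.55 and -0.794 over all members. In line 1, 27 of the 260 promoters (10.4%) had a CpG that fell and 3 (1.15%) had one that rose, where 11.7% and 3.11% of all placed promoters in kept windows did. In line 2, 5 (1.92%) had a CpG that fell and 0 had one that rose, beside 3.27% and 0.642%. These shares lie near or below the background and are no result about the member promoters, which also hold fewer CpGs than others. Over CpGs, 33 of 1589 counted ones (2.08%) fell in line 1, beside 1.41% in all placed promoters. In line 2, 5 fell (0.315%), beside 0.248%. The CpGs of all placed promoters had parental means of only 9.16% to 13.0%, depending on the bases beside them. Many of those CpGs had no room to fall by 25 points, so these shares over CpGs are no result either. Windows lower by at least 10 points in both lines belonged to 5 of the 260 promoters (1.92%), beside 1.61% of all members and 9.08% of all kept windows. The windows lower by at least 10 points in both lines were those of SGCD, TOPAZ1, NT5C3A, CAPN9-AS1 and LOC105379199, and the window of IL1RN was higher by at least 10 points in both.

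SGCD encodes a sarcoglycan of the muscle membrane complex. Its window had 98.0% in parental, 69.3% in line 1 and 82.3% in line 2, which gave differences from parental of -28.7 points in line 1 and -15.8 in line 2. The CpG at position 155754189 of chromosome 5 had 10 of 10 reads methylated in parental, 3 of 18 in line 1 and 13 of 18 in line 2. The adjusted p from Fisher's exact test was 0.000905 for line 1, 0.974 for line 2 and 0.0898 between line 1 and line 2. Line 2 was also lower than parental here but did not pass the test, and the 2 lines were not told apart. The nearby CpG at 155754216 had 100%, 100% and 95%. Reads were few in this promoter, 10 to 20 per library at its 9 counted CpGs and fewer than 10 in at least 1 library at the other 4 of its 13 CpGs.

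SGK1, a kinase induced by serum and glucocorticoids, was read more deeply, with 54 to 127 reads at each counted CpG. Its window had 92.4%, 75.9% and 82.8%. The CpG at position 134639356 of chromosome 6 was the one that fell in both lines. It had 50 of 54 reads methylated in parental (92.6%, 95% Wilson interval 82.4 to 97.1). Line 1 had 25 of 61 (40.98%, interval 29.5 to 53.5) and line 2 had 56 of 89 (62.9%, interval 52.5 to 72.2). The adjusted p from Fisher's exact test was 4.66e-07 for line 1, 0.0108 for line 2 and 0.275 between line 1 and line 2. The CpG at 134639418 had 92.9%, 93.5% and 96.3%, so a single promoter held both a CpG with a large loss and one that was as high in the knockout lines.

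IL1RN, the antagonist of the interleukin 1 receptor, had the opposite direction. Its window had 73.6% in parental, 88.9% in line 1 and 87.0% in line 2, and all 6 of its counted CpGs lay in the promoter. The lowest of them, at position 113885073 of chromosome 2, had 16 of 35 reads methylated in parental, 12 of 16 in line 1 and 23 of 26 in line 2, with an adjusted p from Fisher's exact test of 0.493 and 0.0706. No single CpG of IL1RN passed the test.

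**Figure D5:**
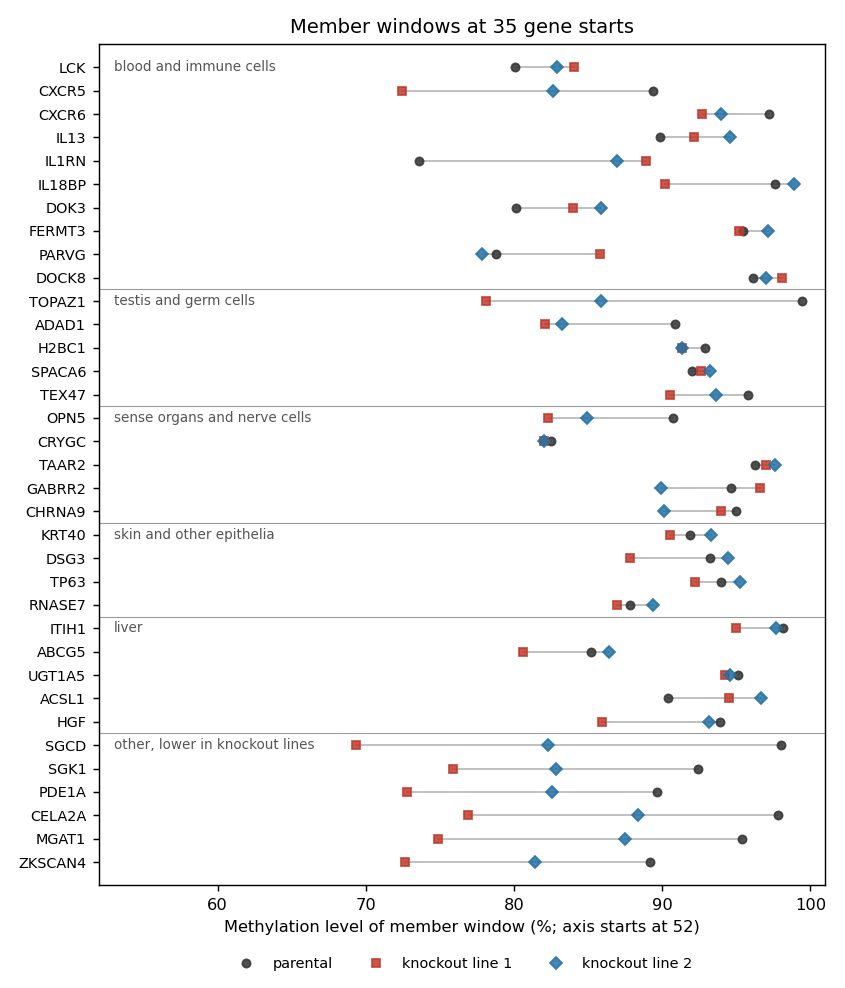
Methylation level (x axis, %, starting at 52) of the member window at 35 gene starts (y axis), with 1 point per library and a grey line over their range. Genes are grouped by where they are known to be used, except a group of 6. That group was picked for lower levels in the knockout lines, so its falls are no finding. SGCD, with 98.0%, 69.3% and 82.3%, has the widest range, and IL1RN is the gene with parental far below both knockout lines.

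Only 27 member promoters had more than 10 CpGs in their 300 bases, and 11 had more than 20. In most of those 11 few CpGs had enough reads, so they were counted as sparse by read number. ZKSCAN4 was the one in which all CpGs had enough reads. This gene encodes a zinc finger protein, and its 28 promoter CpGs had mean levels of 94.7% in parental, 88.0% in line 1 and 92.6% in line 2, with 27 to 176 reads each. The CpG at position 28227027 of chromosome 6 had 81 of 81 reads methylated in parental, 57 of 76 in line 1 and 82 of 87 in line 2 (Fisher's exact test, adjusted p = 2.18e-05 for line 1, 0.712 for line 2 and 0.0427 between the lines).

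The bases beside a CpG were known only within placed promoters. In member promoters, 285 CpGs had A or T on both sides and mean levels of 89.6% in parental, 86.9% in line 1 and 87.8% in line 2. The 512 CpGs with C or G on both sides had 93.5%, 92.1% and 93.1%. The difference of line 1 from parental was -2.70 points for the former and -1.39 for the latter, and that of line 2 was -1.75 and -0.366. Over all placed promoters these differences were -2.06 and -0.939 points in line 1 and -1.11 and -0.597 in line 2. The order is therefore not particular to the member promoters. The sequence printed for SGK1 holds CpGs with A or T on both sides. Values over neighbouring CpGs are not independent and carry no test.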

How the data were processed

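Genomic DNA of parental Hep3B cells and SOX4 knockout lines #1 and #2 (1 library each) was sheared, captured with a methylation panel, bisulfite-treated and sequenced by the authors, who deposited for each strand of each CpG the read counts (total, in CpG context and methylated) and the methylation fraction, on GRCh37 (hg19) per the labels. Aligner and caller are not given in the sources used here. The deposited counts were used, and the fractions only to check them. Strands were summed, giving 104702738, 96987706 and 133170621 CpG reads in parental, line 1 and line 2 and medians of 22, 20 and 27 reads per CpG, so at the minimum of 10 reads a level moves in steps of up to 10 points.

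Groups came from the labels. Members and gene lists were chosen with earlier results of these data known. CpGs were tested with Fisher's exact test (code run with Python 3.11.15, numpy 2.4.6, scipy 1.17.1, pandas 2.3.3 and numba 0.67.0, figures with matplotlib 3.10.9), which was tested on simulated data. Windows were compared as values with no test. Windows were named by fixed rules: the 5 largest falls and rises shared by both lines, the 3 on each side of the limit of 80%, the longest runs, the widest range of CpG levels and the most CpGs at 100%. Genes were named after their values were seen. RefSeq promoter sequences of GRCh38.p14 (35116 in the table) were placed on the deposited positions by the distances between their CpGs, with no coordinates converted, a step added after the data were seen. Of the places found, 99.95% were on the gene's own chromosome (10602 of 10607). Alternatives varied read minimum, difference, adjusted p, depth, window start, level and lines. The X and Y chromosomes were outside the rule.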

Additional observations from a re-analysis of the deposited data

How the results depend on the processing

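Members, lists and tests are those above, and the parental group had 1 library, so no alternative can supply its missing replicates. Precision is limited by 10 reads at the shallowest CpGs, and thinning the reads moved 7 of the 8 counts of called CpGs by over 1.5 times. No paired analysis was possible because the labels describe no pairing of the parental library with either knockout line.

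Of 176 alternative values of 29 results, 80 stayed within 1.5 times the main count, or within 1 SD of the knockout lines, and 96 did not. Counts and levels cannot change sign. Only the knockout difference could, and it ranged from -2.02 to -0.378 points. More member CpGs were lower than higher in 30 of 30 pairs of counts, which reuse the same reads. In the main counts for line 1 against parental, 88.8% of called member CpGs were lower, beside 88.2% of all called CpGs. This direction is therefore not particular to the members. Apart from the 10-point window counts, whose shares are given above, no shares over all CpGs or windows were computed for the alternatives. The counts below therefore say nothing about the members relative to the rest. Among 46 pairs of window counts, more were lower in 29, as many in 14 and more were higher in 3. With a difference of 50 points, the counts of member CpGs were 728 lower and 66 higher in line 1 against parental, 33 lower and 4 higher in line 2 against parental, 141 lower and 11 higher in line 1 against line 2, 17 lower and 2 higher in both lines. With an adjusted p under 0.01, the counts of member CpGs were 1399 lower and 138 higher in line 1 against parental, 121 lower and 7 higher in line 2 against parental, 262 lower and 17 higher in line 1 against line 2, 92 lower and 4 higher in both lines. With reads thinned to the smallest depth at each CpG, the counts of member CpGs were 176 higher in line 1 against parental, 109 lower and 5 higher in line 2 against parental, 240 lower and 27 higher in line 1 against line 2, 88 lower and 4 higher in both lines. With a difference of 10 points, the counts of member CpGs were 69 higher in line 2 against parental, 97 higher in line 1 against line 2, 32 higher in both lines. With at least 5 reads, the counts of member windows were 141 lower and 22 higher in line 1 against parental, 11 lower and 7 higher in line 2 against parental, 38 lower and 9 higher in line 1 against line 2, 2 lower and 2 higher in both lines. With at least 20 reads, the counts of member windows were 32 lower and 3 higher in line 1 against parental, 0 lower and 0 higher in line 2 against parental, 3 lower in line 1 against line 2, 0 higher in both lines. With reads pooled per window, the counts of member windows were 4 higher in line 1 against parental, 1 higher in line 2 against parental, 1 higher in line 1 against line 2. With a level above 70%, the counts of member windows were 527 lower and 43 higher in line 1 against parental, 40 lower and 8 higher in line 2 against parental, 85 lower and 5 higher in line 1 against line 2, 23 lower and 5 higher in both lines. With a level above 90%, the counts of member windows were 0 lower and 0 higher in line 1 against parental, 0 lower and 0 higher in line 2 against parental, 0 lower in line 1 against line 2, 0 higher in both lines. With a difference of 10 points, the counts of member windows were 1844 lower and 360 higher in line 1 against parental, 662 lower and 219 higher in line 2 against parental, 845 lower and 264 higher in line 1 against line 2, 400 lower and 113 higher in both lines. With a difference of 50 points, the counts of member windows were 0 lower and 0 higher in line 1 against parental, 0 lower and 0 higher in line 2 against parental, 0 lower in line 1 against line 2, 0 higher in both lines. With windows shifted by 500 bp, the counts of member windows were 2 lower in line 2 against parental, 0 higher in both lines. With members of at most 10 CpGs seen (added after seeing the data), the counts of member windows were 0 higher in line 2 against parental, 0 higher in both lines. With a level above 70%, the members had 90.4%, 87.7% and 89% and a knockout difference of -2.02 points. With a level above 90%, the members had 95%, 94.5% and 94.8% and a knockout difference of -0.378 points. Windows chosen above 70% on 2 libraries had 90.5% in parental, 86.1% in line 1 and 88.9% in line 2 when each was left out. Windows chosen above 90% on 2 libraries had 94.8% in parental, 93.8% in line 1 and 94.5% in line 2 when each was left out. With either knockout line left out, calls shared by both lines became those of the line that remained: 261 to 2198 lower and 37 to 277 higher member CpGs, 4 to 76 lower and 2 to 8 higher windows, and a knockout difference of -1.55 to -0.794 points. The cause of these changes was not tested.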

Other observations

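The X chromosome was outside the rule and is given here as values only. Of 844 kept windows with 5 to 10 CpGs on it, 213 (25.2%) had a mean level above 80%, beside 38.0% on the autosomes. These 213 windows had 92.5% in parental, 90.3% in line 1 and 91.4% in line 2, with mean differences from parental of -2.22 and -1.11 points.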
